A study of Mus musculus with 12 samples.

Results

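Expression of 8 genes was examined in sorted cochlear hair cells of newborn mice: the transcription factors Sox2, Sox9 and Sox10, the connexins Gjb2, Gjb6 and Gja1, the glutamate transporter Slc1a3 and the fatty acid binding protein Fabp7. The genes are known as markers of supporting cells, glia or the connexin networks of the cochlea, and each was matched by its GENCODE gene name to 1 Ensembl identifier among the 55416 genes in the files. Bulk RNA-seq was available from 12 libraries of the organ of Corti at postnatal day 0 (P0), 6 of them made from sorted inner hair cells (IHCs) and 6 from sorted outer hair cells (OHCs). IHCs were sorted as Atoh1-GFP positive cells, and OHCs as cells that were positive for R26-TdTomato as well as Atoh1-GFP and Insm1-GFP-Cre. All libraries carry the genotype label WT. The reporter that marked OHCs is read out from the Insm1 locus, so cells of the OHC pools carry an Insm1 allele with GFP and Cre. By the methods both cell types came from the same kind of cross, so IHCs can carry that allele too, and the labels do not say which pups gave the cells of each pool. By the methods, each pool came from several neonatal mice of both sexes, so a library is a pool and not 1 animal. The labels do not say whether the pools came from separate litters or days, so p-values measure the spread between these pools. They name 2 facilities where libraries were made without saying which library came from which, so a facility batch was not examined, and its part in any difference between IHCs and OHCs cannot be told apart.

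Hair cells of the organ of Corti stand among supporting cells, which arise from the same progenitors. Sox2 marks those progenitors and is kept in supporting cells, Sox9 and Sox10 are further Sox factors of the otic epithelium, and Sox10 is also a factor of neural crest glia and melanocytes. Gjb2 encodes connexin 26 and Gjb6 connexin 30, which together form most gap junctions between supporting cells, while Gja1 encodes connexin 43. Hearing loss from mutations in GJB2 is among the most common inherited forms of deafness. Slc1a3 encodes the glutamate transporter GLAST, which takes up glutamate around the IHC synapse, and Fabp7 encodes a fatty acid carrier known from radial glia and Schwann cell precursors. These genes are not regarded as hair cell genes, so their level in sorted hair cells is a reading of hair cell RNA together with RNA of any other cell in the pool. In bulk pools, fewer cells of a type and less RNA per cell cannot be told apart.

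Counts on genes ran from 29564827 to 44017309 per library, of which ribosomal RNA took 21.5% to 56.9%, the highest share being in IHC replicate 1. That library also had the lowest TMM factor, 0.486. Genes of the sort differed in the labelled direction, with Tbx2, Fgf8 and Slc17a8 IHC-enriched and Insm1, Neurod6 and Bcl11b OHC-enriched. One IHC library, replicate 6, stood apart in the supporting cell gene Fgfr3, with 73.3 CPM against an IHC median of 5.88. The highest level in any IHC library was 0.44 CPM for Insm1, 0.065 for Neurod6 and 1.15 for Bcl11b. Levels are given as CPM, counts scaled to a common TMM-normalised library size, and IHCs and OHCs were compared over all 13269 genes that passed the low-expression filter. The test was the quasi-likelihood test of edgeR, with Benjamini-Hochberg adjusted p-values and a threshold of 0.05. Log2 fold changes are those of OHCs over IHCs, with their standard error (SE). All 8 are protein-coding genes. On GRCm39, in GENCODE vM39, Sox2 lies at chr3:34704554-34706610, Sox9 at chr11:112673009-112678586, Sox10 at chr15:79039108-79049469 and Slc1a3 at chr15:8663604-8741595. Both Gja1, at chr10:56253241-56278609, and Fabp7, at chr10:57660956-57664554, are on chromosome 10.

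To place the genes, promoter sequences were taken from RefSeq for Gjb2 and Sox2, the genes that differed between the cell types, and for Gjb6, which lies next to Gjb2. The promoter table is on GRCm38.p6, and each sequence was found at exactly 1 place in GRCm39, the build of the files. The lines hold the bases from 250 before the RefSeq start up to the start of the gene in GENCODE vM39 or of the RefSeq gene, whichever comes first, 5′ to 3′ on the strand of the gene. Capitals mark the GC box, the letters GGGCGG or their reverse complement CCGCCC. 
Gjb2, chr14:57342241-57342409, minus strand: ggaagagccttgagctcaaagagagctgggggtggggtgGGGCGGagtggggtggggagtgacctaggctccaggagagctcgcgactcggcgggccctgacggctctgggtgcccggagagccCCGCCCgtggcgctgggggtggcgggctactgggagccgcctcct
Gjb6, chr14:57371088-57371318, minus strand: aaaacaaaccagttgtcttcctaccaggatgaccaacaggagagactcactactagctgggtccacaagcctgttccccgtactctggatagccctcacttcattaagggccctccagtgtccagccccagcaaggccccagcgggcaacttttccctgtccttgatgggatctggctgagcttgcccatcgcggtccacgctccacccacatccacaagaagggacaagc
Sox2, chr3:34703894-34704143, plus strand: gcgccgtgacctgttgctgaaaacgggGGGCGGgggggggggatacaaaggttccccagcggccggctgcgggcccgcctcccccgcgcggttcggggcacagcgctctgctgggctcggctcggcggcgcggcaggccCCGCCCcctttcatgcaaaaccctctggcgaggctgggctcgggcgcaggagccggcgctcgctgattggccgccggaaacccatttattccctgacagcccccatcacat
The Gjb2 sequence held 2 GC boxes and 72.8% G or C, where 19.3% of all 32851 RefSeq promoters held a GC box in a stretch of that length. The Gjb6 sequence held 0 GC boxes and 56.7% G or C, against 30.0% of promoters with a box. The Sox2 sequence held 2 GC boxes and 72.0% G or C, against 32.7% of promoters, and it overlaps exons of the noncoding genes Gm64662 and Gm64674. It ends 410 bases before the GENCODE start of Sox2, while the Gjb2 and Gjb6 sequences end directly at their GENCODE starts. A TATA box, TATAAA on either strand, was found in 0 of these 3 sequences. Of all promoters, 8.01%, 11.8% and 12.4% held one in a stretch as long as the Gjb2, Gjb6 and Sox2 sequences. The letters ACAAAG, a core bound by Sox factors, occurred once in the Sox2 sequence and in 16.5% of promoters of that length. These matches are letters only and show no binding.

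All 8 genes passed the filter. Of these, 2 were IHC-enriched, Gjb2 and Sox2, against 3.81% of all genes tested (6.26% in either direction). None was OHC-enriched, against 2.44% of all genes tested. By DESeq2 0 members were OHC-enriched, against 1590 of 24096 genes, and by edgeR's exact test 0, against 517 of 13269 genes. At an unadjusted p under 0.05, 0 members were higher in OHCs, and the share of all genes at that threshold is not given here. The fitted level was lower in OHCs for 7 of the 8 genes, as it was for 51.8% of all genes tested, and the log2 fold change had a median of -1.55 over the 8 genes and of -0.04 over all genes tested. The 6 members that did not pass the threshold may differ between the cell types by amounts that this spread does not resolve.

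**Figure D1:**
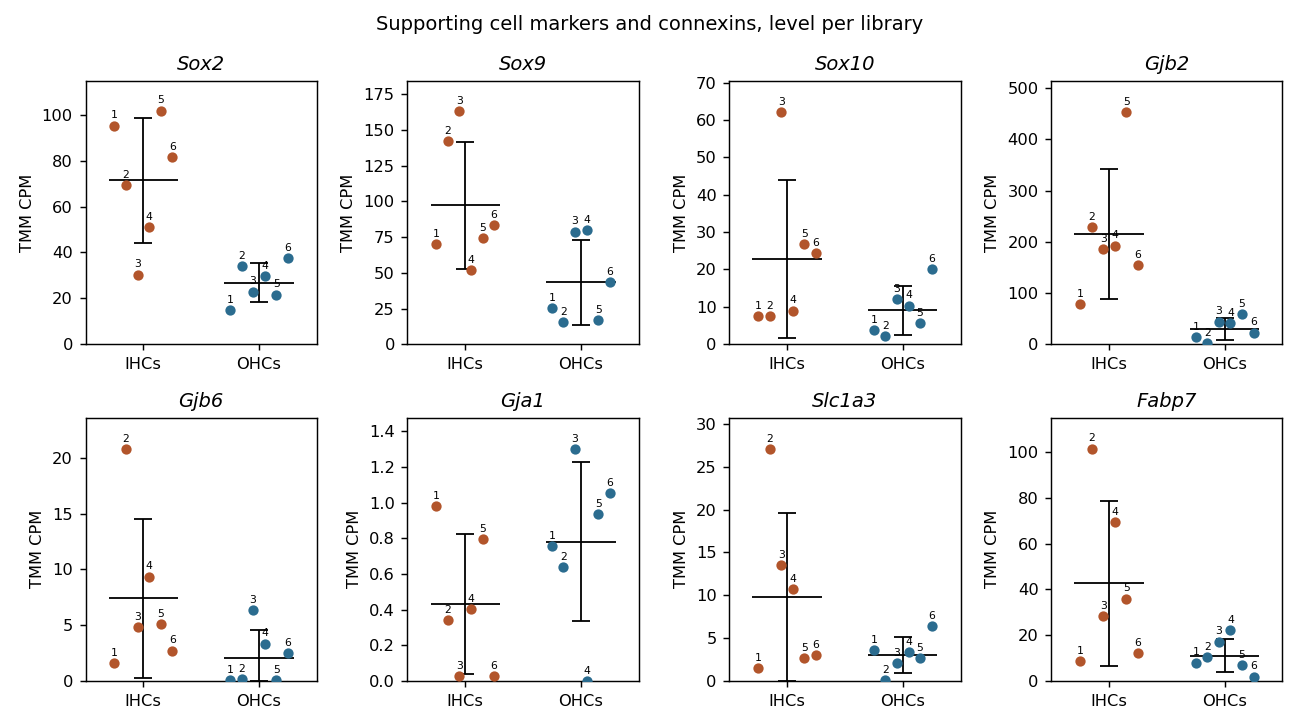
TMM-normalised CPM of each gene (vertical axis, from 0, with its own scale per panel) in the 6 IHC and 6 OHC libraries, numbered by replicate. Horizontal lines are means and bars 1 SD, drawn down to 0 at the lowest. Only for Gjb2 do all IHC libraries, 78.8 to 453 CPM, lie above all OHC libraries, 1.74 to 58.3 CPM.

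Gjb2 showed the largest difference of the 8 genes. In IHC libraries its level was 78.8 CPM at the lowest, 189 at the median and 453 at the highest, in IHC replicate 5. In OHC libraries it was 1.74 at the lowest, in OHC replicate 2, 31.9 at the median and 58.3 at the highest. All 6 IHC libraries lay above all 6 OHC libraries, an arrangement found for 2.37% of all genes tested and for 1 of the 8 genes. The means were 216 ± 127 CPM in IHCs and 30.3 ± 21.1 CPM in OHCs (SD, n = 6 each), and the log2 fold change was -2.83 (SE 0.55), or 7.11-fold higher in IHCs (edgeR adjusted p = 0.0033). When single libraries were left out, the log2 fold change ran from -3.12 to -2.48 and the adjusted p from 0.0013 to 0.013. The OHC libraries differed from each other more than the IHC libraries did, with an SD of log2 CPM of 1.85 against 0.82. OHC replicate 2 held 57 counts of Gjb2, where the next lowest OHC library held 652.

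Sox2 was the other IHC-enriched gene. Its level ran from 30.3 CPM through a median of 75.4 to 102 in IHC libraries, and from 14.9 through 26.4 to 37.5 in OHC libraries. The groups overlapped at IHC replicate 3, the lowest IHC library, and the other 5 exceeded the highest OHC library. The mean was 71.6 ± 27.2 CPM in IHCs and 26.8 ± 8.47 in OHCs, which gave a log2 fold change of -1.42 (SE 0.34, edgeR adjusted p = 0.014). Of the 8 genes, Sox2 varied least among OHC pools, with an SD of log2 CPM of 0.49, below the median of 0.78 over all genes tested. Sox2 lies within an intron of the noncoding gene Sox2ot on the same strand, with which it shares no exon, and Sox2ot was at 1.83 ± 2.67 and 1.68 ± 1.56 CPM (edgeR adjusted p = 0.96). On the opposite strand, Gm64654 of vM39 shares 59.9% of the exonic bases of Sox2 and is not among the genes in the files. Its part in the counts of Sox2 was not tested.

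Sox9 was at 51.8 to 163 CPM in IHCs, with a median of 78.9, and at 15.5 to 79.8 in OHCs, with a median of 34.4. Its highest OHC libraries, replicates 3 and 4, reached the level of the middle IHC libraries. The log2 fold change was -1.17 (SE 0.42, edgeR adjusted p = 0.10), so the difference did not pass the threshold. Sox9 shares 13.0% of its exonic bases with BC006965, a gene on the opposite strand with up to 853 counts, and the methods name no strand setting of the counting, other than that defaults applied where nothing else is stated. The antisense genes of vM39 that share exons with Sox2, Gjb6, Gja1, Slc1a3 and Fabp7 are not among the genes in the files. They share 59.9% of the exonic bases of Sox2, 16.4% of those of Gjb6 and 0.55% to 3.43% of those of the others. The part of antisense RNA in the counts of these genes was not tested. Sox10 was at 7.46 to 62.2 CPM in IHCs (median 16.6) and 2.16 to 20.2 in OHCs (median 8.0). Its highest IHC value was in replicate 3, and the groups overlapped widely. The log2 fold change of Sox10 was -1.34 (SE 0.64, edgeR adjusted p = 0.23), and -0.74 without IHC replicate 3.

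Per length of exons, Gjb6 and Gja1 lay below Gjb2 in all 12 libraries. Gjb6 was at 1.57 to 20.8 CPM in IHCs (median 4.97), highest in IHC replicate 2, and at 0.086 to 6.35 in OHCs (median 1.32). The OHC pools fell apart into replicates 1, 2 and 5, with 3 to 5 counts each, and replicates 3, 4 and 6, with 106 to 234 counts. The log2 fold change of Gjb6 was -1.83 with an SE of 1.04 (edgeR adjusted p = 0.32), and it was -1.18 without IHC replicate 2 and -2.59 without OHC replicate 3. The count of Gja1 never exceeded 26 in an IHC library or 48 in an OHC library, and was 0 in OHC replicate 4, so its level was at the limit of what these libraries detect. It was at 0.43 ± 0.39 CPM in IHCs and 0.78 ± 0.45 in OHCs (log2 fold change 0.88, SE 1.03, edgeR adjusted p = 0.67).

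Gjb2 and Gjb6 lie side by side on the minus strand of chromosome 14, Gjb2 at chr14:57335919-57342240 and Gjb6 at chr14:57360757-57371087, with 18516 bases between them. On the other side of Gjb2 lies a further connexin, Gja3, which had at most 1 count in any library. Beyond Gjb6 lies Cryl1, at 2.41 ± 4.89 CPM in IHCs and 0.36 ± 0.81 in OHCs, which did not pass the filter. The next protein-coding genes on either side, Zmym2 with a log2 fold change of 0.01 (edgeR adjusted p = 0.99) and Ift88 with 0.39 (edgeR adjusted p = 0.62), did not pass the threshold. Per length of exons, the level of Gjb2 exceeded that of Gjb6 by 11.6 to 93.5 times in IHC libraries. In OHC libraries the ratio was 7.34 to 615, and its highest values, 172 and 615, were in replicates 1 and 5, where Gjb6 had 4 and 3 counts. The exons of Gjb6 sum to 3919 bases against a longest transcript of 2406, while Gjb2 has 3715 by either measure. By the longest transcript the ratios would thus be smaller.

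Slc1a3 was at 1.5 to 27.1 CPM in IHCs (median 6.88) and at 0.12 to 6.37 in OHCs (median 3.0). IHC replicates 2, 3 and 4 lay above all OHC libraries, while the other 3 IHC libraries fell within the OHC range. The log2 fold change was -1.69 (SE 0.87, edgeR adjusted p = 0.26), and -1.06 without IHC replicate 2. Fabp7 was at 8.63 to 102 CPM in IHCs (median 32.2) and at 1.92 to 22.1 in OHCs (median 9.17). Fabp7 was above the OHC range in 4 IHC libraries, and replicates 1 and 6 lay within the OHC range. The log2 fold change of Fabp7 was -1.95 (SE 0.61, edgeR adjusted p = 0.061). When single libraries were left out, it ran from -2.26 to -1.48 and the adjusted p from 0.025 to 0.16. It passed the threshold without IHC replicate 1 (adjusted p = 0.025) or IHC replicate 6 (adjusted p = 0.039), and it was smallest without IHC replicate 2, the highest library. Fabp7 passed also by DESeq2 (adjusted p = 0.020) and by edgeR's exact test (adjusted p = 0.021).

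**Figure D2:**
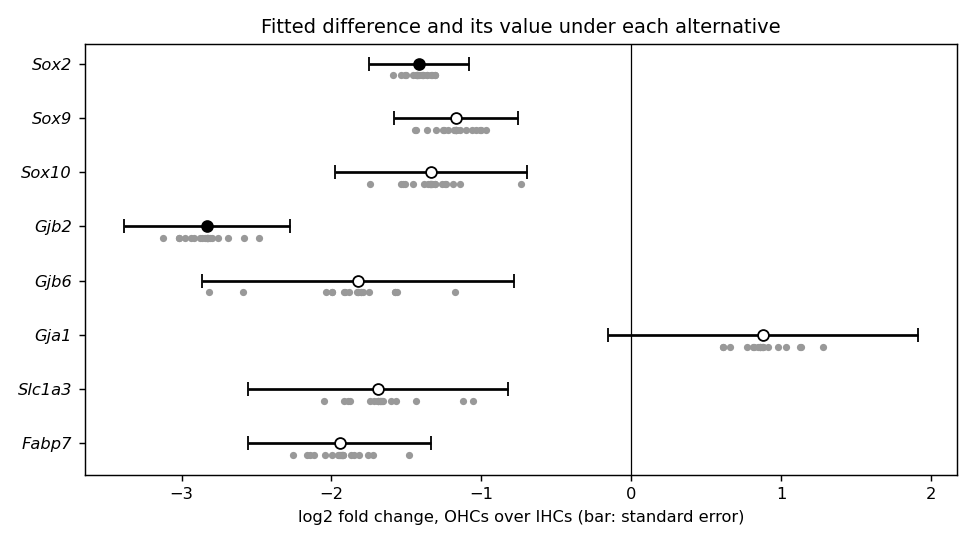
Fitted log2 fold change of each gene, OHCs over IHCs (horizontal axis), with its SE as a bar. Filled circles passed the threshold (Gjb2 at -2.83 and Sox2 at -1.42), open circles did not, and grey dots are the values under the other settings tried, which kept the sign for each gene.

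To compare the genes with each other, counts were divided by the length of the union of exons of each gene and scaled to a common sum per library (TPM). That sum includes ribosomal RNA genes, so a library with much ribosomal RNA, such as IHC replicate 1, has lower TPM for other genes. In IHCs, Gjb2 had the highest mean, 150 ± 93.1 TPM (SD, n = 6), followed by Sox2 at 83.1 ± 44.8, Fabp7 at 82.8 ± 64.5, Sox9 at 59.1 ± 35, Sox10 at 19.3 ± 19.5, Gjb6 at 4.63 ± 3.90, Slc1a3 at 1.67 ± 1.51 and Gja1 at 0.066 ± 0.059. In OHCs, Sox2 came first with 39.2 ± 11.8 TPM, then Sox9 at 32.8 ± 24.1, Fabp7 at 27.4 ± 19.2, Gjb2 at 23.8 ± 15.3, Sox10 at 8.18 ± 5.84, Gjb6 at 1.71 ± 2.20, Slc1a3 at 0.63 ± 0.42 and Gja1 at 0.19 ± 0.12. Gjb2 thus held rank 1 of 8 in IHCs and rank 4 in OHCs. Neighbours in each order were compared over the 6 libraries by exact permutation of the signs of their differences, two-sided, for which the smallest possible p is 0.031. Of the 14 neighbour pairs none passed after adjustment, the smallest adjusted p being 0.11. That value belonged to 4 pairs in which the first gene was higher in 6 of 6 libraries: Sox9 over Sox10, Gjb6 over Slc1a3 and Slc1a3 over Gja1 in IHCs, and Sox10 over Gjb6 in OHCs. The first 4 places in OHCs, and Sox2, Fabp7 and Sox9 in IHCs, were held by genes whose libraries overlapped, with exact p-values from 0.38 to 1 before adjustment. The exons of Slc1a3 and Gja1 sum to 14595 and 12302 bases against longest transcripts of 5228 and 5711, so their TPM values are low by this measure of length. To a smaller degree this holds for Gjb6 (3919 against 2406), Fabp7 (1279 against 943) and Sox10 (3331 against 2809).

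**Figure D3:**
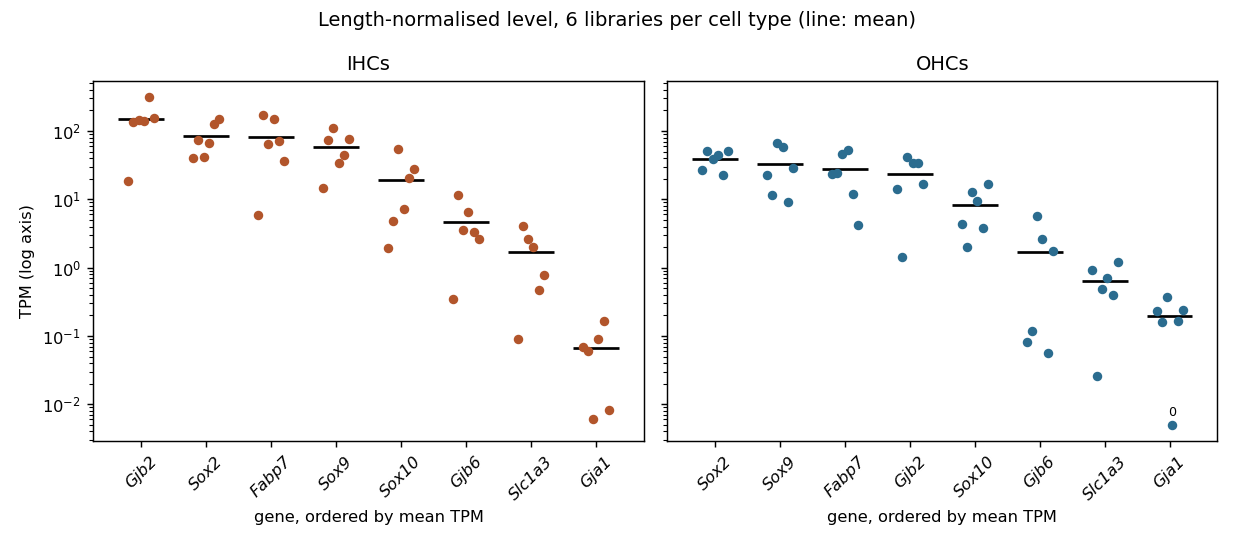
TPM of each gene on a log axis, in IHC libraries (left) and OHC libraries (right), each ordered by its mean (line), with 1 point per library. Gjb2 leads in IHCs at a mean of 150 TPM and holds rank 4 in OHCs at 23.8 TPM. IHC replicate 1 is the lowest point for most genes on the left. Ribosomal RNA, which is part of the TPM sum, took 56.9% of its counts. By CPM it was not the lowest IHC library for Sox2 (95.3), Sox9 (70.0) and Gja1 (0.98), and was the lowest for the other genes. The library with 0 counts of Gja1 is drawn at the bottom of the axis and labelled 0.

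To test whether the 8 genes varied together from pool to pool, each log2 CPM was taken relative to the mean of its cell type, so that differences between IHCs and OHCs do not enter. Over the 28 pairs of genes, Pearson's r ran from -0.47 to 0.79 with a median of 0.24, and 16 pairs were positive. None passed a two-sided permutation test within cell types after adjustment over the 28 pairs, by r or by Spearman's rho, and 2 pairs had an unadjusted p of r under 0.05. The highest r joined Sox9 and Gjb6, at 0.79 (permutation p = 0.022, adjusted p = 0.47), with a rho of 0.40 (permutation p = 0.24, adjusted p = 0.74). Without OHC replicates 3 and 4, the libraries farthest from the median for Sox9, r was 0.56. Sox9 and Sox10 were next at 0.62 (permutation p = 0.041, adjusted p = 0.47), with a rho of 0.60 (permutation p = 0.061, adjusted p = 0.71) and an r of 0.61 without those libraries.

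For the neighbours Gjb2 and Gjb6, r was 0.46 (permutation p = 0.24, adjusted p = 0.54) and rho 0.57 (permutation p = 0.076, adjusted p = 0.71), and r was 0.70 without OHC replicates 2 and 5. Within the IHC libraries their r was 0.56 (exact permutation p = 0.22, adjusted p = 0.75), and within the OHC libraries it was 0.44 (exact permutation p = 0.44). The highest r of Sox2 with another member was 0.24, with Gja1, and its lowest was with Slc1a3, at -0.47 (permutation p = 0.14, adjusted p = 0.54). Within the 6 IHC libraries the highest r was between Gjb6 and Fabp7, 0.98, with the smallest p that 720 orders allow (exact permutation p = 0.0028, adjusted p = 0.078), and within the 6 OHC libraries the r of that pair was 0.18 (exact permutation p = 0.81). The difference between those values was not tested. Over all 12 libraries, Gjb6 and Fabp7 had an r of 0.44, which was 0.77 without OHC replicate 6 (permutation p = 0.00017, adjusted p = 0.0048), and that was the only leave-out of a library in which any pair passed.

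Among all genes tested, those with a centred pattern most like a member were mostly not the other members. For Gjb2 they were Dctd (r = 0.95), Klhl13 (0.92) and Tecta (0.91) over the 12 libraries. Tecta, which encodes alpha-tectorin of the tectorial membrane, was at 772 ± 222 CPM in IHCs and 220 ± 117 in OHCs. For Sox2 the closest were Gm48804 (0.92), Tti2 (0.89) and Septin9 (0.88), for Sox9 Mecom (0.94), Slc22a3 (0.92) and Igfbp7 (0.91), and for Sox10 Cfl1 (0.86), Pde5a (0.84) and Snx22 (0.84). For Gjb6 they were Tmem120a (0.92), Chpt1 (0.90) and Prr15 (0.90), for Slc1a3 Gm4849 (0.94), Ccdc117 (0.92) and Calml4 (0.90), for Fabp7 Toe1 (0.92), Fank1 (0.90) and Iqcc (0.88), and for the sparse Gja1 5033430I15Rik (0.97), Phf7 (0.95) and Aopep (0.91). The best-placed member for another member was Gjb6, 24th among the genes most like Sox9. These values are the highest of 13269 on 12 libraries and carry no test. Of the genes most like Sox9, Mecom and Igfbp7 had means of only 0.19 and 0.14 CPM in IHCs, against 4.36 and 15.8 in OHCs. Few IHC counts thus stand behind their r.

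The gene families of the members were examined next. Of 19 Sox genes, 11 were tested, and 2 were IHC-enriched and 0 OHC-enriched, with a median log2 fold change of -1.13, and of -0.70 without the 3 members. Besides Sox2 this was Sox4, a SoxC factor of early differentiation, at 121 ± 57.1 CPM in IHCs and 54.9 ± 12.8 in OHCs (log2 fold change -1.14, SE 0.29, edgeR adjusted p = 0.023). Of 23 connexins and pannexins, 7 were tested and 10 had no more than 3 counts in any library. Of the 7, 2 were IHC-enriched and 0 OHC-enriched, with a median log2 fold change of -1.83, and of -1.47 without the 3 members. Besides Gjb2 this was Gjd2, which encodes the neuronal connexin 36, at 3.36 ± 4.07 CPM in IHCs and 0.14 ± 0.15 in OHCs (log2 fold change -4.58, SE 1.16, edgeR adjusted p = 0.022). Of the 8 genes of glutamate uptake and glutamine synthesis 4 were tested, and of the 9 fatty acid binding proteins 2, with 0 past the threshold in either by edgeR and 1 of each at an unadjusted p under 0.05. DESeq2 called 4 and 3 genes of these lists and the exact test 1 of each. Of the Sox genes and of the connexins and pannexins, DESeq2 called 4 each and the exact test 2 each. The calls of DESeq2 and of the exact test in these lists are counted in both directions together. Among the genes of these 4 families that edgeR tested, 0 were higher in OHCs at an unadjusted p under 0.05. The share of all genes at that threshold is not given here. The filter left out family genes with a higher mean in OHCs, such as Slc1a1 and Fabp3, and others with a higher mean in IHCs, such as Slc1a6 and Fabp1. Sox7 and Sox18, known from endothelium and named here after their values were seen, did not pass the filter, had at most 1 count in any IHC library, and were at 0.12 to 13.5 and 0.24 to 14.9 CPM in OHC libraries.

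Supporting cell genes outside the 8 did not follow one direction. Of 18 further supporting cell genes, 16 were tested, 0 were IHC-enriched and 1 was OHC-enriched, with a median log2 fold change of -0.03. At an unadjusted edgeR p under 0.05, 1 was higher in IHCs and 3 in OHCs. In both directions together, DESeq2 called 6 and the exact test 4. The OHC-enriched gene was Prox1, a homeobox factor of supporting cells and early OHCs, at 28.6 ± 27.1 CPM in IHCs and 217 ± 35.3 in OHCs (log2 fold change 2.92, SE 0.46, edgeR adjusted p = 0.00047). Their summed level was 441 to 935 CPM in IHC libraries and 636 to 1096 in OHC libraries. Beside Prox1, the means of Cryab (139 CPM in IHCs and 244 in OHCs) and Fgfr3 (16.8 and 73.1) also went into that sum, and neither gene passed the threshold. Of 7 genes of the greater epithelial ridge and tectorial membrane, 5 were tested and 2 were IHC-enriched, Tecta (log2 fold change -1.81, SE 0.33, edgeR adjusted p = 0.0021) and Otog (-1.61, SE 0.45, edgeR adjusted p = 0.036). The sum of these 7 genes was 769 to 1945 CPM in IHCs and 162 to 711 in OHCs, lowest in OHC replicate 2, which was also lowest in Gjb2. The part of these cells' RNA in the level of Gjb2 was not tested.

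Markers of other cells were read beside the members. Of 17 hair cell genes, all tested, 4 were IHC-enriched, Otof, Espn, Tmie and Gfi1, and 1, Pcdh15, was OHC-enriched. Their sum was 7964 to 12983 CPM in IHCs and 6587 to 8660 in OHCs. For Schwann and satellite glia, 5 of 10 markers were tested, 0 were IHC-enriched and 1, Egr2, was OHC-enriched. Foxd3 and Cdh19 had no more than 3 counts in any library, and the list summed to 16.6 to 47.7 CPM in IHCs and 11 to 70.7 in OHCs. Of 7 markers of melanocytes and intermediate cells, 2 were tested and 0 passed by edgeR, by DESeq2 or at an unadjusted p under 0.05, and Dct, Tyr, Tyrp1 and Mlana were at or below 3 counts, with sums of 6.60 to 52.3 CPM in IHCs and 1.62 to 15.8 in OHCs. Other genes of these lists were present: Mbp reached 29.5 CPM, Erbb3 25.5, Mitf 21.9 and Kcnj10 29.5 CPM, and Egr2 was at 21.6 CPM in OHCs on average. The part of such cells in the levels of Sox10 and Fabp7 was not tested.

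Of 10 endothelium markers, 8 were tested, 0 were IHC-enriched and 6 were OHC-enriched, among them Cldn5, Kdr, Tek and Pecam1, with sums of 0.52 to 13.0 CPM in IHCs and 17.0 to 235 in OHCs. The sum was highest in OHC replicate 3, at 235 CPM, and that replicate and replicate 4 were the OHC libraries with the highest Sox9. The part of endothelial RNA in the level of Sox9 was not tested. Of 10 mesenchyme and fibrocyte markers, 7 were tested and 0 passed by edgeR (2 at an unadjusted p under 0.05, 1 by DESeq2 and 1 by the exact test), with sums of 122 to 232 CPM in IHCs and 147 to 234 in OHCs, most of it from Pdgfra. Of 8 spiral ganglion neuron markers, 4 were tested, and Ntrk3, Nefl and Nefm were IHC-enriched, with sums of 825 to 1512 and 217 to 432 CPM, while Prph was at or below 3 counts in all libraries. Erythroid markers summed to at most 0.061 CPM in IHCs and 3.20 in OHCs, with 0 of 7 tested by edgeR and 1 called by DESeq2. Macrophage markers summed to 1.75 to 19.6 CPM in IHCs and 0.087 to 5.47 in OHCs, with 1 of 9 tested, C1qb, which edgeR did not call (1 at an unadjusted p under 0.05 and 1 macrophage gene called by DESeq2), and 6 of 9 at or below 3 counts in all libraries, Cx3cr1 and Aif1 among them.

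**Figure D4:**
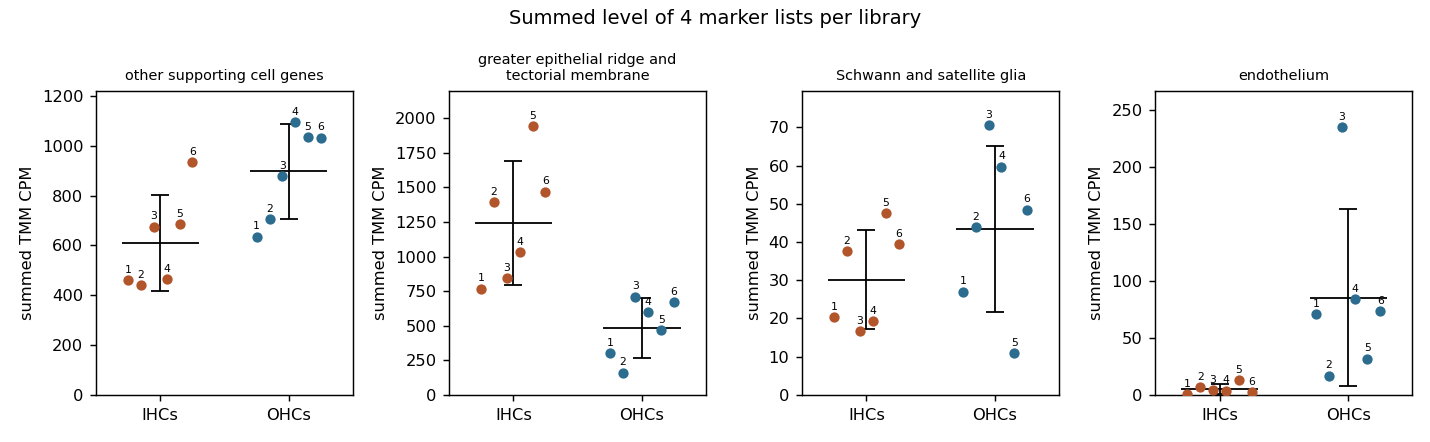
Summed CPM of 4 marker lists in each library, numbered by replicate, with the mean and 1 SD. The genes of the greater epithelial ridge and tectorial membrane sum to 769 to 1945 CPM in IHCs and 162 to 711 in OHCs, and endothelium markers to 0.52 to 13.0 and 17.0 to 235 CPM.

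Each gene was then set against the log2 sums of the lists of hair cells, other supporting cell genes and Schwann and satellite glia, and against the percent of ribosomal RNA, within cell types over the 12 libraries. Of the 32 relations, 0 passed after adjustment by r or rho, and 3 had an unadjusted p of r under 0.05. For Sox10 and the other supporting cell genes r was 0.75 (permutation p = 0.012, adjusted p = 0.19), with a rho of 0.60 (permutation p = 0.062), and r was 0.79 without IHC replicate 3 and OHC replicate 2. For Gjb6 and the sum of hair cell genes r was -0.57 (permutation p = 0.010, adjusted p = 0.19), and rho -0.66 (permutation p = 0.037). For Gjb6 and the glial list r was 0.63 (permutation p = 0.046, adjusted p = 0.46), with a rho of 0.49 (permutation p = 0.14) and an r of 0.54 without OHC replicates 1 and 3. Sox2 and Sox9 followed with that list at 0.53 and 0.52 (permutation p = 0.076 and 0.13). For Gjb2, r was 0.45 with the other supporting cell genes (permutation p = 0.11, adjusted p = 0.46) and 0.005 with the glial list (permutation p = 0.99). With the percent of ribosomal RNA, r of the 8 genes ran from -0.39 to 0.51.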

How the data were processed

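RNA of sorted IHC and OHC pools was depleted of ribosomal RNA, primed with random hexamers, amplified and sequenced in pairs. For each library the authors deposited unnormalised gene counts, made with Trimmomatic, STAR in 2 passes and HTSeq (intersection-nonempty mode) on GRCm39 with GENCODE vM27. Versions are not given in the sources used here, and the methods name no strand setting beyond stating that defaults applied where nothing else is indicated. Summary lines, 24.2% to 46.1% of all lines per library, were left out. Amplification without molecular identifiers means that counts are not independent molecules.

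The 8 genes and the marker lists were chosen with earlier results of these data known, so p-values of IHCs against OHCs were adjusted over all genes tested. Correlations and orders of level among the members have no wider family and were adjusted over the relations computed, 28, 32 or 14. Genes were filtered by filterByExpr (minimum count 10, total 15), normalised by TMM and fitted with edgeR 4.0.16 (R 4.3.3, limma 3.58.1) by glmQLFit and glmQLFTest over all 12 libraries, with an adjusted p under 0.05. DESeq2 1.42.0 and edgeR's exact test were alternatives. Correlations used log2 CPM with a prior count of 2 and 100000 permutations within cell types, or all 720 orders within one type, in Python 3.11.15 with numpy 2.4.6 and scipy 1.17.1. For each correlation, r was also taken without the 2 libraries farthest from the median of the first gene. TPM used the union of exons in GENCODE vM39, which holds 98.8% of the identifiers. Tests were checked on simulated data. Besides the 8 genes, the text names up to 4 genes past the threshold per list by the size of the fold change, the 3 genes most like each member, genes that share exons with a member, and the neighbours of Gjb2 and Gjb6. Other genes named from the lists, such as Pcdh15, Fgfr3, Cryab, Pdgfra, Sox7, Sox18 and markers at the floor, were chosen after their values were seen, as were the ratios of Gjb2 to Gjb6. Alternatives were other scalings and filters, a replicate block and leaving out each library. The labels do not say whether a replicate number marks a shared sort. Deviations of same-numbered IHC and OHC libraries correlated at -0.03 to 0.02, which cannot decide this, as a shared sort need not shift both cell types alike. Single values of some glial markers are not reported here.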

Additional observations from a re-analysis of the deposited data

Results flagged for a closer look

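Among the 16 groups formed by the 8 genes and 2 cell types, 1 held a library far from the others. Sox10 in IHC replicate 3 was at 62.2 CPM, where the next IHC library was at 26.8, and that gap made up 0.65 of the range of the 6 IHC libraries. Chance gives such a gap in about 1 of 20 groups if values are normally distributed. The gap was taken on CPM without a log, which need not follow that distribution, so the rate may be higher here. Without that library the log2 fold change of Sox10 was -0.74 (edgeR adjusted p = 0.55).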

How the results depend on the processing

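Gjb2 and Sox2 stayed IHC-enriched in all 20 alternatives tried, with log2 fold changes from -3.12 to -2.48 and from -1.59 to -1.31. Of the 157 results for single members under alternatives, 157 kept their direction and 150 their side of the threshold, the others being Fabp7 in 6 alternatives and Sox9 in 1. The filter of at least 10 counts in every library left out Gjb6, Gja1 and Slc1a3.

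Over all genes, the 506 IHC-enriched and 324 OHC-enriched genes became 1339 and 1590 with DESeq2 and 893 and 918 without a filter, and 749 and 517 with the exact test. Leaving out single libraries gave 369 to 551 and 225 to 402. With a replicate block, 512 and 391 genes were called, and the members called IHC-enriched went from 2 to 4, adding Sox9 (adjusted p = 0.045) and Fabp7 (adjusted p = 0.034). Whether the numbers pair the libraries is not known, and 0 of 6 IHC and 1 of 6 OHC libraries were closest to their own number. The cause of the added calls was not tested. The median r between members was 0.12 to 0.26 when libraries were left out, lowest without OHC replicate 2, and 0.34 without TMM factors. The number of pairs past the threshold was 0 to 1. Between 4 and 8 members kept their rank by TPM in OHCs, the 4 being without OHC replicate 2, and 6 to 8 in IHCs. Few counts stood behind Gja1, and behind Gjb6 in OHC replicates 1, 2 and 5, so counting error is large there.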
